A study of Homo sapiens with 6 samples.

Results

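The genes described here are 30 members of the core apoptosis machinery: the BCL2 family, the caspases with their adaptors, and the proteins that act between the mitochondrion and the caspases. They were taken as a fixed list of symbols, matched through Entrez identifiers, and all 30 were found among the 23459 genes of the deposited table. Counts were sufficient for a test in 28 of them. The 2 others were BOK, with 0 counts in every library, and CASP10, with 11 counts in the control group and 32 in the IRF4-overexpressing group.

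The counts came from RNA-seq of Raji, an established cell line from a Burkitt's lymphoma that the labels describe as germinal centre-derived. The comparison asks how raised IRF4, a transcription factor needed to form plasma cells, changes expression in such cells. Both groups had been infected for 5 days with lentivirus and selected for 7 days in 3 µg/ml puromycin. The vector carried human IRF4 cDNA in one group of 3 libraries and was empty in the control group of 3 libraries. Stable integrations were selected as a population, with no cloning described, and the promoter driving the cDNA is not named. The labels do not say that replicates were separate infections or cultures, so p-values reflect how far these 6 libraries scatter, and that scatter could be technical.

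Mitochondrial apoptosis is set by the balance of BCL2 relatives. Anti-apoptotic members (BCL2, BCL2L1, BCL2L2, MCL1, BCL2A1) hold the pore-forming effectors BAX and BAK1 in check, and BH3-only proteins release or activate both. BOK is listed with these effectors. Open pores let cytochrome c and DIABLO out, cytochrome c joins APAF1 to activate CASP9, and death receptors start the caspase cascade through FADD and CASP8. In germinal centre B cells BCL2 is normally repressed, which keeps these cells prone to apoptosis, and survival rests largely on MCL1.

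IRF4 itself measured 1.02, 1.38 and 1.37 CPM in the control libraries against 150.0, 120.5 and 125.4 CPM with raised IRF4. CPM are counts scaled to a common library size after TMM scaling, a correction for differences in composition. Values of a group are listed in the order of replicates 1, 2 and 3 throughout, and "under IRF4" means in the IRF4-overexpressing libraries. Totals ran from 27681979 to 46210702 counts per library. The labelled cell type showed in its markers: 6 B cell genes summed to 2112 to 2270 CPM in control and 2108 to 2266 CPM in IRF4-overexpressing libraries, and 5 germinal centre genes to 1181 to 1229 and 1104 to 1185 CPM. Libraries also differed within groups along 1 axis, the first principal component after group means were removed, with 70.7% of the remaining variance in log2 CPM. Side A of it held control replicate 1 with IRF4-overexpressing replicates 2 and 3, and side B held the other 3 libraries. Log2 ratios within each side are given for the members that the results turn on.

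In the IRF4-overexpressing libraries 4 members rose and 0 fell. The 4 were the anti-apoptotic genes BCL2 (2.02-fold) and BCL2A1 (3.07-fold), the BH3-only gene BBC3 (1.73-fold), and the inflammatory caspase gene CASP1 (3.82-fold). A gene was called when edgeR's two-sided quasi-likelihood test gave a Benjamini-Hochberg adjusted p under 0.05 over all genes tested. By that rule 2.98% of the 12079 tested genes were called higher and 0.182% lower. At an unadjusted p under 0.05, 8 members were higher and 1 lower, against 11.3% and 8.18% of all tested genes. The median log2 fold change of the 28 tested members was 0.14, beside 0.01 for all genes tested. The groups did not overlap for 7 members in the higher direction and 4 in the lower, against 13.5% and 11.9% of all tested genes. DESeq2, another count test, called 5 members higher and 0 lower (4.78% and 1.45% of all genes). With a term for the side of the library axis, edgeR also called 5 higher and 0 lower (5.87% and 3.22% of all genes). CFLAR was the added member in both. The sides were read from these same counts, so p-values of that fit are too small.

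**Figure D1:**
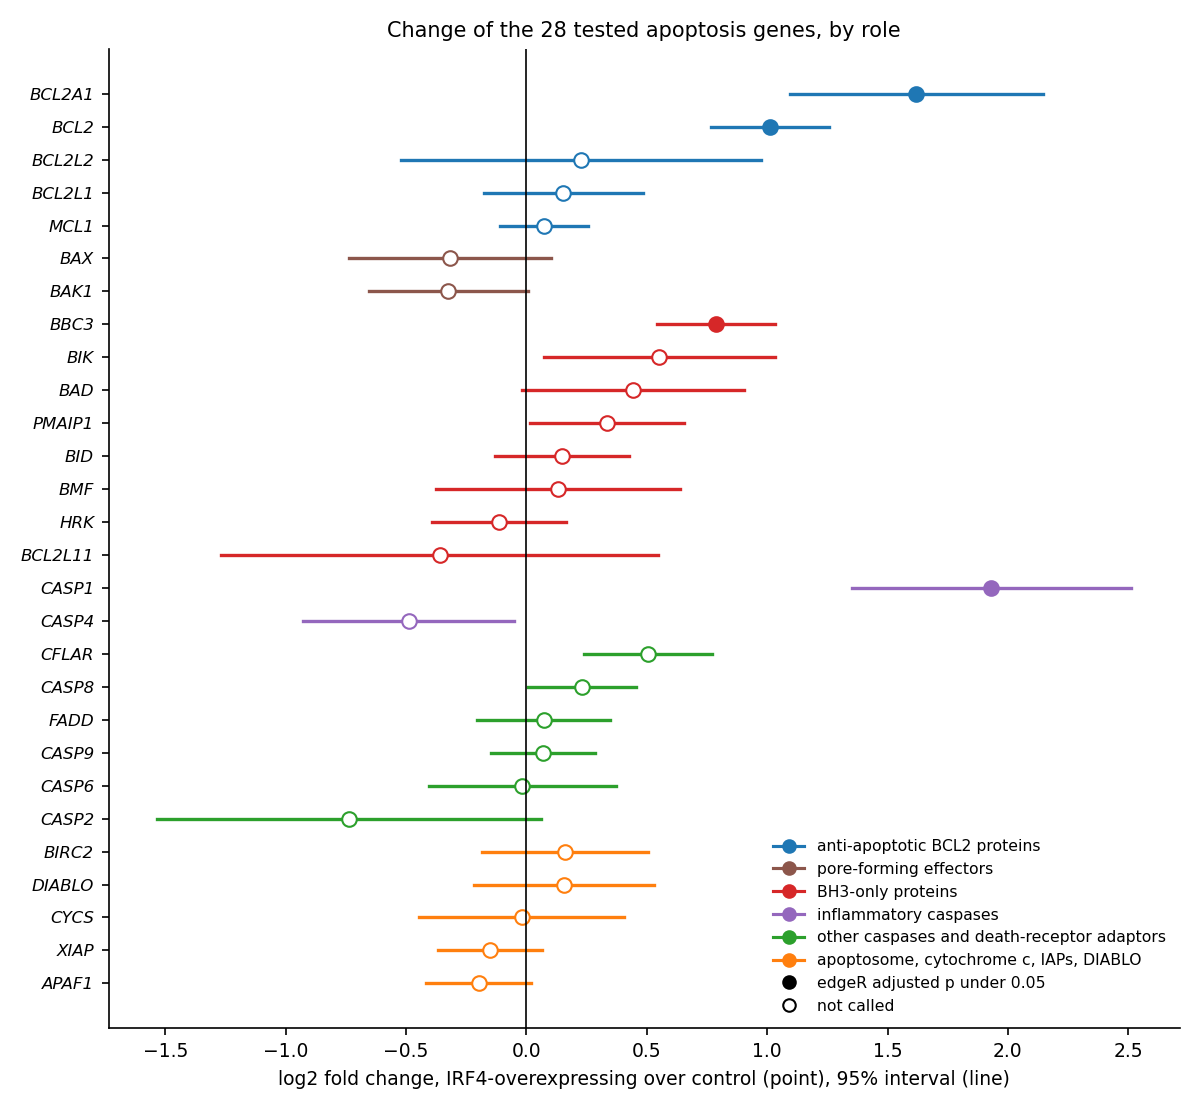
Log2 fold change of each tested member, IRF4-overexpressing over control (x axis), with its 95% interval from edgeR's test, grouped and coloured by role. Filled points are the 4 called members, BCL2A1, BCL2, BBC3 and CASP1. Open points did not pass, and the intervals of BCL2L11 and CASP2 are the widest among members with a mean above 1 CPM.

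Promoter sequence was read from RefSeq windows of GRCh38.p14, from 250 bases before to 50 after each annotated start, which were present for 25 of the 30 members. The called members BCL2, BCL2A1 and BBC3 had one each, and CASP1 was among the 5 without. Motifs were searched on both strands: a form of the interferon-stimulated response element that IRF proteins bind (GAAA and GAAA with 2 free bases between), the composite site of an ETS factor with IRF4 (GGAA and GAAA with 2 free bases between), the octamer ATGCAAAT, the AP-1 site TGANTCA, which reads alike on both strands, and a form of the NF-kB site (GGGA and TTTCC with 1 free base between). The response element was found in windows of 3 of the 25 members (BCL2A1, BBC3 and CASP8), and in 4.38% of all 27305 genes with windows. The ETS-IRF site was found in 1 (BMF) against 3.47% of genes, the octamer in 1 (APAF1) against 2.19%, AP-1 in 4 (BBC3, CASP8, CFLAR and FADD) against 9.37%, and the NF-kB form in 0 against 0.677%. Members with several starts have several windows, 45 for the 25 members against 35116 for all genes, so shares per gene are not fully alike. Counted by window, the response element was in 3 of 45 against 3.57% of all windows, and AP-1 in 5 against 7.71%. The ETS-IRF site and the octamer were in 1 window each, against 2.82% and 1.77%. The BCL2 window held none of the 5. Matches of different motifs overlapped in no member. A match is a run of letters and was not tested as a binding site.

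The stretches that follow show each match to the response element or the ETS-IRF site among the members, and the AP-1 match of BBC3, because these cover 2 of the called genes. Each is 30 bases of the gene's strand, 5′ to 3′, with the matched letters in capitals.
BCL2A1, response element (chr15:79971310-79971339, minus strand): cattttaaacTTTCTCTTTCatacatgaca
BBC3, response element (chr19:47232620-47232649, minus strand): acaatgaGAAACTGAAAAAGAAAcggaatg
CASP8, response element (chr2:201233450-201233479, plus strand): gagtttttggTTTCTGTTTCaccttgtgtc
BMF, ETS-IRF site (chr15:40106969-40106998, minus strand): gagggctgaaTTTCACTTCCttctgtaaga
BBC3, AP-1 (chr19:47232763-47232792, minus strand): ggcactggaaggTGAGTCActctggtgagg
The BCL2A1 match lies 133 to 124 bases before the annotated start, on the opposite strand. In BBC3, 2 matches overlap, and they lie 25 to 40 bases after the annotated start. The CASP8 match spans an annotated start of that gene, which has 3 windows. BMF, with the ETS-IRF letters 22 to 13 bases before a start, measured 14.1, 15.2 and 17.4 CPM in the control libraries against 22.9, 14.7 and 13.5 CPM with raised IRF4, with overlapping groups (log2 fold change 0.13, 95% interval -0.38 to 0.64). Its log2 ratio was 0.49 within side B and near 0 within side A.

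Among the 5 anti-apoptotic genes, BCL2 and BCL2A1 rose and the 3 others did not pass. BCL2, whose product keeps BAX and BAK1 inactive at the mitochondrial membrane, had control levels of 15.6, 15.8 and 18.1 CPM. Under IRF4 its levels were 35.1, 33.1 and 31.9 CPM. The 3 IRF4-overexpressing libraries lay above all 3 controls, with little spread inside either group. The log2 fold change was 1.01 (SE 0.10, 95% interval 0.77 to 1.26, edgeR adjusted p = 0.00438). Within side A and side B of the library axis the log2 ratio of mean CPM was 1.05 and 1.05. BCL2 was the 1 member called in each of the 6 fits that left out a library, with an edgeR adjusted p of 2.50e-04 to 0.0498.

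BCL2A1, a short-lived anti-apoptotic protein known as an NF-kB target in B cells and 1 of the genes with a response-element match, had control levels of 9.88, 8.52 and 7.63 CPM. Under IRF4 its levels were 18.6, 30.4 and 31.1 CPM. The groups did not overlap, and replicate 1 was the lowest of the IRF4-overexpressing libraries. The log2 fold change was 1.62 (SE 0.22, 95% interval 1.09 to 2.15, edgeR adjusted p = 0.0133). The log2 ratio was 1.64 within side A and 1.20 within side B. BCL2A1 lost its call without control replicate 1, 2 or 3 (edgeR adjusted p = 0.063, 0.0779 and 0.0701), while its log2 fold change stayed at 1.49 to 1.81 over all 6 such fits.

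MCL1, a rapidly turned over protein on which many B cell lymphomas depend, had the highest mean level per gene length in controls. It gave 463, 452 and 446 CPM in controls and 472, 464 and 496 CPM under IRF4. The IRF4-overexpressing libraries all lay above the controls, but by little, with a fold change of 1.05 (95% interval 0.926 to 1.20, edgeR adjusted p = 0.569). BCL2L1, which encodes BCL-XL, gave 95.2, 109.7 and 108.9 CPM in controls and 138.9, 104.6 and 105.4 CPM under IRF4. Only replicate 1 stood above the controls, and the log2 fold change was 0.15 (95% interval -0.18 to 0.48, edgeR adjusted p = 0.513). BCL2L2 was near silent, with 67 counts in control and 90 in IRF4-overexpressing libraries. MCL1 and BCL2L1 also give shorter transcripts with the opposite action, and counts per gene merge these forms.

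**Figure D2:**
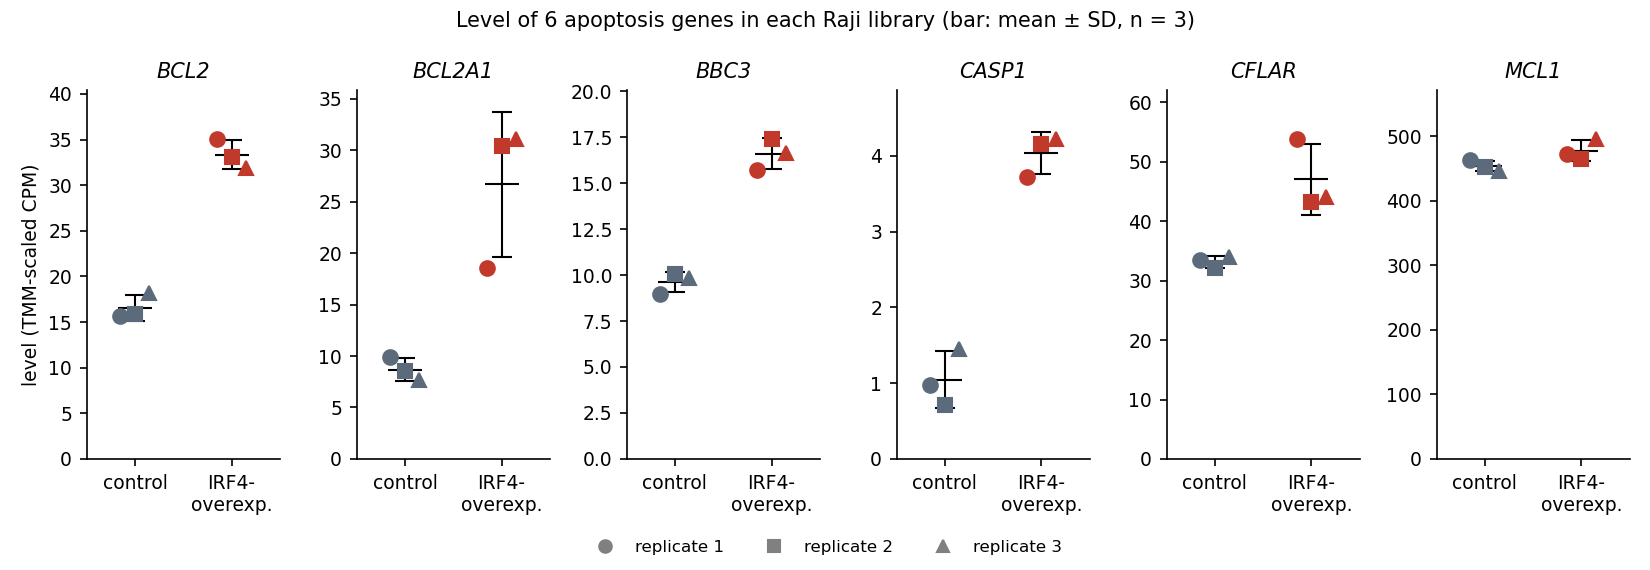
Level of 6 members in each library, in TMM-scaled CPM on linear axes that start at 0 and differ between panels. Symbols mark replicates 1 to 3, and bars give the mean ± SD of 3 libraries. The groups stand apart without overlap in every panel, widely for BCL2, BCL2A1, BBC3 and CASP1, and narrowly for MCL1.

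To compare levels between genes, CPM were divided by the deposited gene width in kilobases. In control libraries MCL1 stood at 111 CPM per kilobase and CYCS at 95.1, with overlapping libraries, followed by BIK (51.6), PMAIP1 (48.4), BAX (45.5) and BCL2L1 (38.5), each overlapping the next. BCL2 was in place 23 of 30, at 2.40 CPM per kilobase, and its libraries overlapped those of CASP6 (2.25). CASP4, CASP1, BCL2L2, CASP10 and BOK were the lowest, all under 0.4 CPM per kilobase. BCL2 reached 4.84 and BCL2A1 went from 9.20 to 28.3 CPM per kilobase in the IRF4-overexpressing group.

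The summed level of the 5 anti-apoptotic genes was 161 ± 1.19 CPM per kilobase in control and 193 ± 4.55 in IRF4-overexpressing libraries (SD, n = 3 each). Its composition differed between the groups as well. BCL2A1 made up 5.70% ± 0.735 of the sum in control and 14.6% ± 3.79 in IRF4-overexpressing libraries, and BCL2 1.49% ± 0.134 and 2.51% ± 0.162 (SD, n = 3 each). MCL1 went from 68.8% ± 1.22 to 60.5% ± 0.677 of the sum (SD, n = 3 each), while its own level differed little. BCL2L1 held 23.9% and 22.2%, with overlapping groups. The sums were not tested.

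The pore-forming effectors did not pass the test. BAX read 49.4, 62.2 and 59.7 CPM across the controls, compared with 57.4, 42.3 and 37.6 CPM under IRF4. Its groups overlapped because IRF4-overexpressing replicate 1 lay among the controls, and the fold change was 0.801 (95% interval 0.599 to 1.07). BAK1, which forms the same kind of pore, had a fold change of 0.799 (95% interval 0.636 to 1.003) with groups that did not overlap, at 22.9 to 24.8 CPM in control and 16.1 to 22.4 CPM in IRF4-overexpressing libraries. BOK was not detected. A floor of 3 counts over a group corresponds to 0.029 CPM in the control and 0.0251 CPM in the IRF4-overexpressing group, for counting error only. BAX and BAK1 were lower within both sides of the axis, by log2 ratios of -0.31 and -0.44 in side A and of -0.09 and -0.09 in side B.

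Of the 8 BH3-only genes, 1 rose. BBC3 encodes PUMA, which binds all anti-apoptotic relatives and is a classical p53 target. It measured 8.99, 10.0 and 9.82 CPM in the control libraries against 15.7, 17.4 and 16.7 CPM with raised IRF4. The groups stood well apart and the spread within each was small. The log2 fold change was 0.79 (SE 0.10, 95% interval 0.54 to 1.03, edgeR adjusted p = 0.0114), with log2 ratios of 0.92 and 0.66 within sides A and B. Without single libraries the log2 fold change was 0.73 to 0.82, but the call was lost in 5 of 6 such fits (edgeR adjusted p = 0.0532 to 0.0756). It held without IRF4-overexpressing replicate 1 (edgeR adjusted p = 5.76e-04).

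BIK and PMAIP1, which encode the endoplasmic reticulum protein BIK and NOXA, a BH3-only partner of MCL1, were the most abundant BH3-only genes per kilobase. BIK gave 53.1, 49.2 and 45.1 CPM in controls and 50.1, 85.6 and 80.5 CPM under IRF4. Replicate 1 thus sat inside the control range while replicates 2 and 3 were far above it. The fold change was 1.47 (edgeR unadjusted p = 0.0298, adjusted p = 0.212), with log2 ratios of 0.64 within side A and 0.09 within side B. PMAIP1 read 113, 97.3 and 93.1 CPM across the controls, compared with 107, 135 and 140 CPM under IRF4. It showed the same arrangement with overlapping groups (fold change 1.26, edgeR unadjusted p = 0.0433, adjusted p = 0.24).

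BCL2L11 encodes BIM, a BH3-only protein that drives the death of autoreactive B cells, and it varied more within groups than between them. It measured 66.9, 94.7 and 103 CPM in the control libraries against 114, 45.5 and 46.1 CPM with raised IRF4. IRF4-overexpressing replicate 1 was the highest of all 6 libraries and replicates 2 and 3 were the lowest. The log2 fold change of -0.36 had an interval of -1.27 to 0.55, and the log2 ratio was -0.55 within side A and 0.21 within side B. BAD, whose protein is held inactive by survival kinases, gave 11.4, 14.1 and 12.4 CPM in controls and 12.4, 19.6 and 19.2 CPM under IRF4. BID, which CASP8 cleaves to link death receptors to mitochondria, gave 69.0, 68.0 and 67.8 CPM in controls and 64.0, 83.0 and 80.0 CPM under IRF4. Both resembled BIK in that replicates 2 and 3 lay above the controls and replicate 1 did not. HRK, a BH3-only gene known mainly from neurons, was low at 4.79 to 5.77 CPM in all 6 libraries. BAD, BID, BMF and HRK had log2 fold changes of 0.44, 0.15, 0.13 and -0.11, none of which passed (edgeR adjusted p of 0.268 to 0.716). The 8 genes summed to 157 ± 5.55 CPM per kilobase in control and 199.7 ± 27.3 in IRF4-overexpressing libraries (SD, n = 3 each). The sum was 168 in IRF4-overexpressing replicate 1, near the highest control of 163, and 218 and 213 in replicates 2 and 3.

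**Figure D3:**
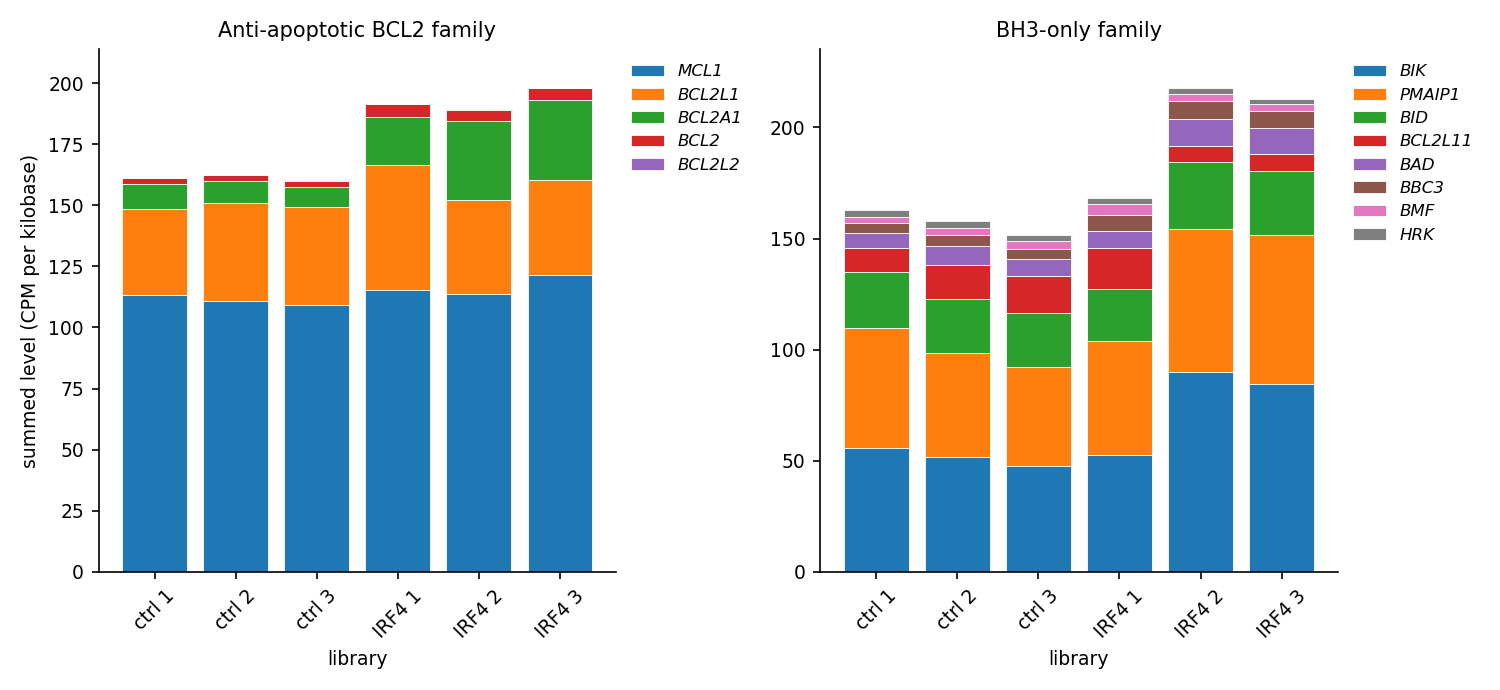
Stacked level of the anti-apoptotic BCL2 genes (left) and the BH3-only genes (right) in each library, in CPM per kilobase, with library names on the x axis (ctrl, control, and IRF4, IRF4-overexpressing, replicates 1 to 3). BCL2A1 and BCL2 take a larger share in all 3 IRF4-overexpressing libraries, while the taller BIK segment appears in replicates 2 and 3 of that group and not in replicate 1.

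CASP1, the inflammatory caspase that matures interleukin-1 family cytokines and opens gasdermin D, had the largest fold change of the members, from a low level. The controls held 0.971, 0.707 and 1.45 CPM (39, 19 and 53 counts). Under IRF4 the libraries held 3.72, 4.16 and 4.23 CPM (128, 154 and 204 counts). The groups did not overlap. The log2 fold change was 1.93 (SE 0.24, 95% interval 1.35 to 2.51, edgeR adjusted p = 0.010), with log2 ratios of 2.11 and 1.79 within sides A and B. CASP1 lost its call without control replicate 1 (edgeR adjusted p = 0.0773) and held without each other library. CASP4, the caspase that senses intracellular lipopolysaccharide, lies in the same cluster of related genes, between which short reads can be split, and had the opposite sign. It gave 1.07, 0.930 and 0.957 CPM in controls and 0.669, 0.783 and 0.663 CPM under IRF4 (log2 fold change -0.49, edgeR unadjusted p = 0.0336, adjusted p = 0.22). The groups did not overlap, and the call was not made by edgeR or DESeq2.

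CASP1 is also a gene of myeloid cells, and some markers of these were higher beside it. The 6 myeloid markers summed to 2.14 to 2.64 CPM in control and 3.65 to 7.12 CPM in IRF4-overexpressing libraries, with 0 of 4 tested ones called. CSF1R had 0.324, 0.521 and 0.438 CPM in controls but 4.07, 1.22 and 1.39 CPM under IRF4 (5.21-fold, edgeR adjusted p = 0.0846). ITGAX had 4, 2 and 4 counts in controls but 27, 10 and 13 under IRF4 (4.33-fold, edgeR adjusted p = 0.147). Neither overlapped between the groups. On the log2 scale LYZ differed by 0.18 and CD68 by 0.20, FCGR3A had 0 counts in every library, and CD14 stayed at or under 0.145 CPM. CASP1 was lowest in replicate 1 of the IRF4-overexpressing group, where CSF1R and ITGAX were highest. The CASP1 levels of that group lay close together, however, at 3.72, 4.16 and 4.23 CPM. T and NK cell markers (7 genes, 3 at 0 counts) summed to 0.186 to 0.438 CPM in control and 0.456 to 0.54 CPM in IRF4-overexpressing libraries. Epithelial markers of the kidney line that produced the virus (6 genes) summed to 0.0996 to 0.274 and 0.32 to 0.837 CPM. EPCAM, KRT18, KRT19 and CDH2 were at 0 counts, and CDH1 had 3, 0 and 2 counts in controls and 9, 29 and 16 under IRF4. KRT8 had a lower mean under IRF4, with 1, 3 and 8 counts in controls and 2, 2 and 2 under IRF4. The higher epithelial sum thus came from CDH1 alone. Both sums were higher in the IRF4-overexpressing group without overlap, and 0 of their genes had enough counts for a test. Any part of other cells in the CASP1 result was not tested. In bulk RNA, more cells with a transcript and more transcript per cell cannot be told apart.

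CFLAR and CASP8, which act together at death receptors, did not pass in edgeR but had groups that did not overlap. CFLAR encodes c-FLIP, which binds FADD and holds CASP8 inactive. It read 33.4, 32.1 and 34.0 CPM across the controls, compared with 53.9, 43.2 and 44.1 CPM under IRF4. All IRF4-overexpressing libraries lay above the controls, and replicate 1 was the highest. The log2 fold change of 0.51 (SE 0.11, 95% interval 0.24 to 0.77) missed the threshold in edgeR (adjusted p = 0.0721). CFLAR passed by DESeq2 (adjusted p = 0.0156), in edgeR with the library-axis term (adjusted p = 0.0166) and in edgeR with library sizes alone (adjusted p = 0.0303).

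CASP8, the initiator caspase of death receptors, measured 35.6, 31.7 and 33.3 CPM in the control libraries against 37.1, 39.6 and 41.5 CPM with raised IRF4. The groups were adjacent without overlap (fold change 1.17, 95% interval 1.01 to 1.37, edgeR unadjusted p = 0.044, adjusted p = 0.242). FADD, the adaptor that recruits it, was the most abundant gene of this role group per kilobase. FADD gave 46.8, 46.9 and 44.0 CPM in controls and 41.7, 54.6 and 48.4 CPM under IRF4, with overlapping groups (fold change 1.05, 95% interval 0.868 to 1.27).

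CASP2, an initiator caspase linked to the response to faulty chromosome segregation, had the lowest fold change of the tested members, 0.600 (95% interval 0.345 to 1.04), and did not pass (edgeR adjusted p = 0.277). It read 61.6, 76.8 and 85.8 CPM across the controls, compared with 71.3, 29.8 and 33.6 CPM under IRF4. IRF4-overexpressing replicate 1 lay within the control range and replicates 2 and 3 far below it. CASP9, the apoptosome caspase, differed little, at 18.2 to 19.9 CPM in control and 19.5 to 20.1 CPM in IRF4-overexpressing libraries (fold change 1.05, 95% interval 0.903 to 1.22). CASP6, a caspase of the later steps, had a fold change of 0.989 (95% interval 0.755 to 1.29). CASP10, a relative of CASP8, was at 2, 2 and 7 counts against 3, 9 and 20, a ratio of 2.52 with an exact counting interval of 1.24 to 5.54, which leaves out the spread between libraries.

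Downstream of the mitochondrion, 0 of 5 members passed. CYCS, which encodes cytochrome c, measured 621, 479.9 and 479 CPM in the control libraries against 399, 586 and 573 CPM with raised IRF4. The highest library was a control and the lowest an IRF4-overexpressing one, and the fold change was 0.986 (95% interval 0.734 to 1.33). CYCS has near-identical processed copies in the genome, and how reads from these were counted is not given in the sources used here. APAF1, the scaffold of the apoptosome, had a fold change of 0.871 (95% interval 0.749 to 1.01) and XIAP, which inhibits active caspases, 0.900 (95% interval 0.775 to 1.05), both with groups that did not overlap. DIABLO, which releases caspases from XIAP, gave 66.4, 60.1 and 58.9 CPM in controls and 53.2, 77.3 and 76.1 CPM under IRF4, so that replicate 1 was the lowest of all 6 libraries. DIABLO and BIRC2, a ubiquitin ligase of death-receptor and NF-kB signalling, had fold changes of 1.11 and 1.12 with overlapping groups (95% intervals 0.860 to 1.44 and 0.880 to 1.42).

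Many members thus varied with the library axis. The log2 difference of side A over side B had the same sign in both groups for 22 of the 28 tested members. Its median size was 0.16 in control and 0.37 in IRF4-overexpressing libraries. The sides were read from these same counts in both groups together, so a shared sign is partly built in. The share over all tested genes was not counted, so the 22 cannot be read as a trait of the members. BCL2L11 and CASP2 were lower on side A in both groups, by log2 differences of -0.56 and -0.40 in control and -1.32 and -1.17 in IRF4-overexpressing libraries. CYCS was higher on side A in both, by 0.37 and 0.54, and BIK by 0.17 and 0.73. For BCL2, CASP1, BBC3 and MCL1 these differences were at most 0.17 in size in either group. BCL2A1, the other called member, was higher on side A, by 0.29 in control and 0.73 in IRF4-overexpressing libraries. Without IRF4-overexpressing replicate 1, edgeR called 11 members higher and 5 lower, against 19.9% and 25.1% of the 12226 genes tested in that fit. The 7 higher ones beyond BCL2, BCL2A1, BBC3 and CASP1 were BID, BAD, BIK, PMAIP1, CASP8, CFLAR and DIABLO, and the lower ones were BAX, BAK1, BCL2L11, CASP2 and APAF1. In that fit both IRF4-overexpressing libraries lie on side A with 1 of the 3 controls, so group and axis are partly mixed. With all 6 libraries, the log2 ratios within side A and side B were 0.77 and -0.09 for BAD, 0.24 and -0.09 for BID, and 0.21 and -0.16 for DIABLO, which thus differed in sign between the sides. They were -0.96 and -0.19 for CASP2, -0.25 and -0.10 for APAF1, and 0.28 and 0.17 for PMAIP1. For CASP8 they were 0.19 and 0.19, and for CFLAR 0.38 and 0.71, in the same direction on both sides.

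**Figure D4:**
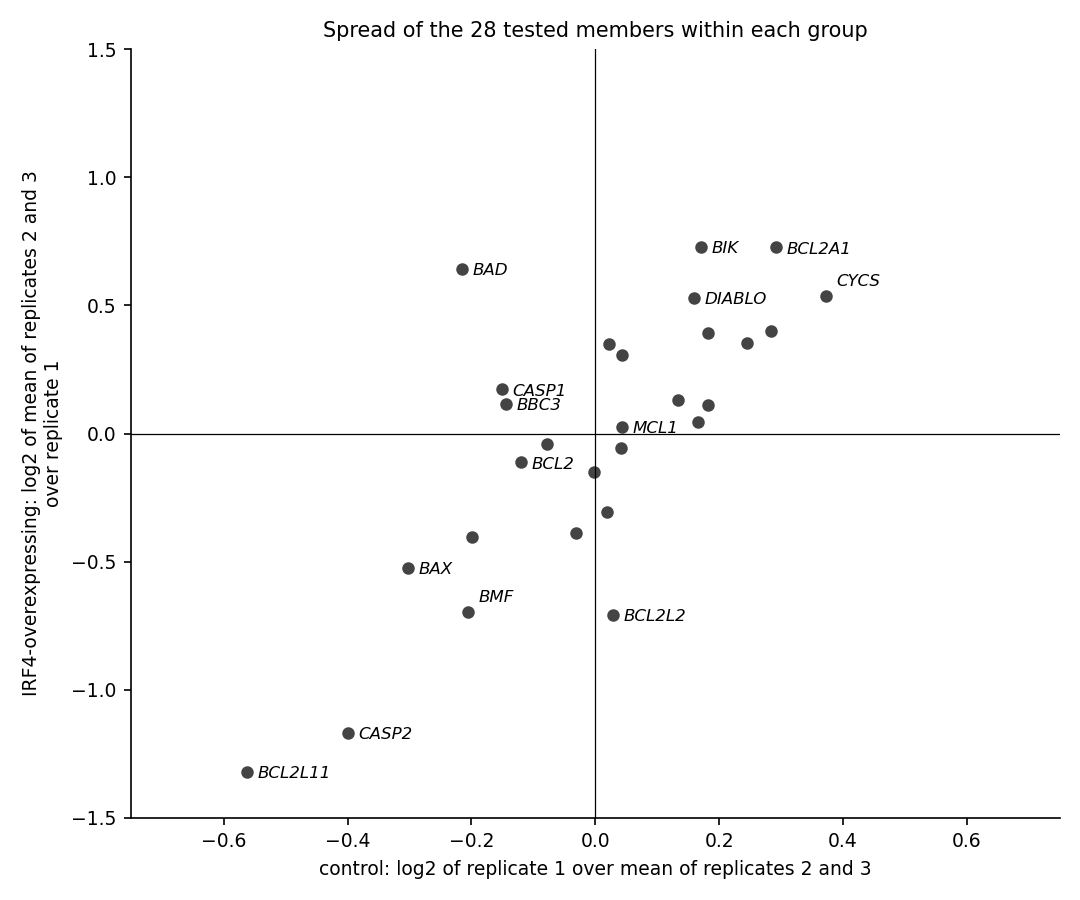
Spread of the 28 tested members inside each group, as the log2 ratio of side A over side B of the library axis in control (x axis, replicate 1 over the mean of replicates 2 and 3) and in IRF4-overexpressing libraries (y axis, mean of replicates 2 and 3 over replicate 1). BCL2L11 and CASP2 lie farthest down and left, BIK, BCL2A1 and CYCS up and right, and BCL2, BBC3, CASP1 and MCL1 near the centre.

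A further 55 genes of the wider pathway gave the setting. Of these 39 were tested, and 4 rose while 0 fell, beside 2.98% and 0.182% of all tested genes. Their median log2 fold change was 0.13, and 8 genes had 0 counts in every library, among them the death ligand gene FASLG and the inflammasome adaptor gene PYCARD. The risers were 2 of 8 tested genes of death receptor signalling, 1 of 7 further BCL2-related genes and 1 of 6 inflammasome genes. By edgeR none passed among 3 further inhibitor of apoptosis genes, 8 genes of mitochondrial release or DNA cleavage and 5 transcription factor genes. Of these inhibitor genes, BIRC3 gave 2046, 1723 and 1752 CPM in controls and 2368, 2910 and 3018 CPM under IRF4, without overlap. Its log2 fold change of 0.588 missed the threshold in edgeR (adjusted p = 0.070). BIRC3 passed by DESeq2 (adjusted p = 0.00379) and in edgeR with the library-axis term (adjusted p = 0.00602). By DESeq2 6 of the 39 were higher and 0 lower (4.78% and 1.45% of all genes). With the library-axis term 6 were higher and 1 lower (5.87% and 3.22% of all genes). In the death receptor arm, TNFSF10, which encodes the death ligand TRAIL, yielded 11, 0 and 6 counts in controls but 85, 115 and 149 under IRF4. Its fold change was 17.6 (95% interval 7.80 to 39.8, edgeR adjusted p = 0.00805). FAS, a death receptor, gave 50.8, 46.5 and 45.4 CPM in controls and 72.9, 84.2 and 85.1 CPM under IRF4 (1.70-fold, edgeR adjusted p = 0.012). The TRAIL receptor genes TNFRSF10A and TNFRSF10B did not pass, at log2 fold changes of 0.00 and 0.17. RIPK1, a kinase of the same signalling complexes, had a log2 fold change of -0.38 (edgeR adjusted p = 0.13) and was called lower only with the library-axis term among the fits on all 6 libraries (adjusted p = 0.0437).

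Around CASP1, CARD16, which encodes a short CASP1-like inhibitor and is its neighbour in the RefSeq annotation of GRCh38.p14, rose from 1.23 ± 0.0056 to 2.46 ± 0.486 CPM (SD, n = 3 each; 2.01-fold, edgeR adjusted p = 0.0432). CARD16 is near-identical to part of CASP1, so the split of reads between them is uncertain. It lost its call by limma-voom and without each library in turn except IRF4-overexpressing replicate 1. BCL2L14, a BCL2 relative of uncertain role, had 0 counts in control and 82 in IRF4-overexpressing libraries, at least 23.7-fold higher when the control group is set to a floor of 3 counts in all. TNFSF10 lost its call without control replicate 3 (edgeR adjusted p = 0.0547) and FAS without control replicate 2 or 3 (0.0693 and 0.0823), while BCL2L14 kept its call only without IRF4-overexpressing replicate 1 among the fits that leave out a library.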

How the data were processed

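RNA was sequenced from 3 control and 3 IRF4-overexpressing Raji libraries, prepared with a stranded poly(A) kit per the labels' protocols. The authors deposited raw read counts per Entrez gene, which the whole-number values with differing totals show, beside 1 gene width in bases. Genome builds named in the submitters' processing notes were mm9 and hg19. Aligner, counter, annotation and strand setting are not given in the sources used here, so reads of overlapping or near-identical genes cannot be reassigned. Symbols came from RefSeq (23308 of 23459 genes matched).

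Counts were tested with edgeR 4.0.16 (R 4.3.3): TMM scaling, filterByExpr (12079 genes kept), a group-only design and the quasi-likelihood F-test, adjusted over all genes tested. SE is the absolute log2 fold change divided by the square root of F, and intervals are at the 95% level. The test was run on simulated counts first. Alternatives used DESeq2 1.42.0, limma-voom (limma 3.58.1), other scalings and filters (1 CPM in 3 libraries), a replicate block, the library-axis side, IRF4 left out, and each library left out. The axis is the first principal component of log2 CPM around group means. The members, gene lists and alternatives were chosen with earlier results of these data known. Members received a value in every library if called, at an unadjusted p under 0.05, called by DESeq2 or with the axis term, or highest per kilobase in their role group. BCL2L1, BAD, BID, BMF, BCL2L11, CASP2, CASP10 and DIABLO were added after their values were seen. Of the wider pathway, called genes were named by rule, and some genes the rule also named are not reported here. RIPK1, BIRC3, the TRAIL receptors, FASLG and PYCARD were added later. Motifs were chosen after these results were known. Figures used matplotlib 3.10.9.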

Additional observations from a re-analysis of the deposited data

How the results depend on the processing

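The 4 called members were the same under median-ratio size factors, no filter, the stricter filter, limma-voom and IRF4 left out, and CFLAR joined them with library sizes alone, DESeq2 and the library-axis term. Without single libraries 1 to 11 members were called higher and 0 to 5 lower, with both highest counts in the fit without IRF4-overexpressing replicate 1, and with 1 higher without control replicate 1 and 2 without control replicate 2 or 3. Wider pathway genes called higher numbered 0 to 15 and lower 0 to 6 in those fits, with 0 higher without control replicate 3, and 1 was lower with the axis term. The 15 and 6 came without IRF4-overexpressing replicate 1, where 19.9% and 25.1% of all tested genes were called. Over all genes, 360 were higher and 22 lower in edgeR, 577 and 175 by DESeq2, 709 and 389 with the axis term, 2436 and 3071 without IRF4-overexpressing replicate 1, and 120 to 156 and 3 without any other library. With the replicate number as a block, 0 members and 0 wider pathway genes were called, and 3 genes over the whole table. Same-numbered libraries deviated in opposite directions (r = -0.61, -0.20 and -0.42 across genes for numbers 1, 2 and 3), and no library correlated best with its own number. These r values largely follow the sides of the library axis. They therefore cannot show whether a weaker pairing by number lies beneath it. Signs changed only for members whose 95% interval spanned 0, with log2 fold changes of at most 0.23 in size (BCL2L2). CASP6 and CYCS had log2 fold changes of 0.0793 and 0.0766 with library sizes alone, and without single libraries -0.11 to 0.0888 and -0.11 to 0.13. Over the same fits BCL2L1 ran from -0.00567 to 0.23, BCL2L2 from -0.028 to 0.48, BMF from -0.15 to 0.28 and FADD from -0.0217 to 0.16. The negative values of BCL2L1, BCL2L2 and BMF came without IRF4-overexpressing replicate 1. The 95% intervals of members reached 0.18 to 0.91 on the log2 scale to either side, with a median of 0.34. Changes smaller than this were not detectable for a typical member. A call needed an adjusted p over all genes, so larger changes could be missed as well. CFLAR, at a log2 fold change of 0.51, was not called (edgeR adjusted p = 0.0721).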
